A study of Chlorocebus sabaeus with 32 samples.

Results

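The C1q-like proteins and the cerebellins are secreted relatives of the complement protein C1q. Neurons release them at synapses, where they bridge receptors on both sides of the cleft. The genes described here are 6 of the 33994 gene rows in the count table: C1QL1, C1QL2, C1QL3, CBLN1, CBLN2 and CBLN4. They were picked by name with earlier results on these libraries known. C1QL1 entered that choice because it separated libraries by the number at the start of their titles. Values along that split are therefore given below as a description, without a test.

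Hippocampal RNA of 32 vervet monkeys (Chlorocebus sabaeus, an Old World monkey) was measured by RNA sequencing after ribosomal RNA depletion. All libraries share the same age class, under 1 year, and the labels name no treatment, genotype or sex. By the 4-digit number that opens their titles they fall into the prefix-2010 group (16 libraries), the prefix-2011 group (2) and the prefix-2009 group (14), and the meaning of that number is not stated. Each title has its own identifier, so each library was taken as 1 animal, and replicate numbers 1 to 32 are mere names, given in accession order.

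C1q-like proteins bind the adhesion receptor ADGRB3, also called BAI3. In mouse hippocampus, dentate granule cells make C1ql2 and C1ql3 and secrete them from mossy fibres, where they recruit kainate-type glutamate receptors together with neurexin 3. Mouse C1ql1 is known from climbing fibres of the cerebellum and from oligodendrocyte precursor cells. Cerebellins bind presynaptic neurexins and postsynaptic receptors of the glutamate receptor delta family, such as GRID1. In mouse, Cbln1 is known above all from cerebellar granule cells, while Cbln4, which also binds DCC and NEO1, is made by somatostatin interneurons among other cells.

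Gene counts per library ranged from 9347635 to 19673621, with a median of 16201657. A pair of libraries stood apart in the members and in marker genes. Replicate 1, of the prefix-2009 group, had the lowest depth and the largest share of reads outside annotated features, 67.1% against a median of 56.2% over all libraries. It also had the lowest CALB1 (14.1 CPM, its count relative to library size) and RGS14 (25.2 CPM), markers of dentate granule and CA2 pyramidal neurons whose medians over the 32 libraries were 104 and 141 CPM. The markers of these cells went both ways in replicate 1. Above their medians were, among others, the dentate granule marker DOCK10 (187 against 158 CPM) and the CA pyramidal markers WFS1 (104 against 50.7 CPM), MPPED1 and BOK. Replicate 16, of the prefix-2010 group, had the lowest PROX1, the transcription factor of dentate granule cells, at 20.1 CPM against a median of 116 CPM. Its markers also went both ways. The dentate granule marker STXBP6 was above its median (29.2 against 21.8 CPM), and the CA pyramidal marker WFS1 was at its highest (108 against 50.7 CPM). Its summed level of 5 striatal markers was 489 CPM against a median of 82.7 CPM, and that of 5 thalamic markers, of which SHOX2 was at 0 in all 32 libraries, was 149 CPM against 50.8 CPM. The summed level of 8 dentate granule markers was 400 CPM in replicate 1 and 399 CPM in replicate 16, the lowest 2 of 32, against a median of 634 CPM. Results that rest on this pair are given with and without it.

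C1QL1 averaged 14.1 ± 3.85 CPM (SD, n = 32), from 7.61 to 20.4 CPM, on raw counts of 125 to 374. The lowest, median and highest values were 12.5, 16.99 and 19.2 CPM in the prefix-2010 group, the 2 libraries of the prefix-2011 group had 20.4 and 16.4 CPM, and the prefix-2009 group had 7.61, 10.5 and 13.3 CPM. All 16 libraries of the prefix-2010 group lay above the median of the prefix-2009 group and 14 of them above its highest library, so the groups overlapped only at their edges.

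C1QL2 ranged more widely, with a mean of 48.0 ± 22.4 CPM (SD, n = 32). Its lowest, median and highest values were 12.4, 39.4 and 62.6 CPM in the prefix-2010 group, 28.1 and 39.5 CPM were counted in the 2 libraries of the prefix-2011 group, and the prefix-2009 group had 4.28, 62.2 and 93.7 CPM. Only 1 of the 16 libraries of the prefix-2010 group was above the median of the prefix-2009 group, yet the ranges overlapped, and replicate 1 held the lowest value of all. Without replicate 1, the lowest library of the prefix-2009 group had 38.3 CPM, still below the highest of the prefix-2010 group.

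C1QL3 averaged 306 ± 94.6 CPM (SD, n = 32). Its lowest, median and highest values were 193, 276 and 459 CPM in the prefix-2010 group, the 2 libraries of the prefix-2011 group had 322 and 193 CPM, and the prefix-2009 group had 76.7, 397 and 456 CPM. Here too 1 of 16 libraries of the prefix-2010 group lay above the median of the prefix-2009 group, and the 2 lowest libraries of all, replicates 1 and 12, belonged to the prefix-2009 group. Replicate 16, the lowest library of the prefix-2010 group in C1QL2, had 327 CPM of C1QL3, above that group's median. C1QL3 overlaps PTER in the gene table of assembly mChlSab1.0, and whether reads were counted by strand is not given here, so reads of the 2 genes may not be fully separated.

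CBLN1 had the lowest counts, from 13 to 135 reads per library, and averaged 2.89 ± 2.43 CPM (SD, n = 32). Its lowest, median and highest values were 1.01, 2.33 and 11.3 CPM in the prefix-2010 group, 2.29 and 2.88 CPM in the 2 libraries of the prefix-2011 group, and 1.27, 2.22 and 11.1 CPM in the prefix-2009 group. The highest values in both large groups came from the 2 libraries that stood apart, replicate 16 and replicate 1, and the rest reached at most 6.16 CPM. That next library, replicate 22, also had 387 CPM of TTR, a transport protein of choroid plexus, against a median of 1.85 CPM. Its 5 choroid plexus markers summed to 420 CPM against a median of 7.42 CPM. Other marker sums of replicate 22 were above their medians too, such as the striatal (164 against 82.7 CPM) and thalamic ones (86.3 against 50.8 CPM). The dentate granule sum was below its median (525 against 634 CPM). The part of these lists in its CBLN1 level was not tested.

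CBLN2 averaged 14.9 ± 6.52 CPM (SD, n = 32). Its lowest, median and highest values were 10.05, 15.4 and 44.1 CPM in the prefix-2010 group, 13.8 and 16.999 CPM in the 2 libraries of the prefix-2011 group, and 7.95, 11.97 and 21.3 CPM in the prefix-2009 group. Replicate 16 was again the highest of the prefix-2010 group and replicate 1 the highest of the prefix-2009 group. The ranges overlapped, with 14 of 16 libraries of the prefix-2010 group above the median of the prefix-2009 group.

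CBLN4 was nearly even across libraries apart from that pair, in which the summed level of 6 somatostatin interneuron markers was also highest, at 531 CPM in replicate 1 and 582 CPM in replicate 16 against a median of 419 CPM. The list's genes went both ways: in replicate 1 SATB1 was at 223 CPM against a median of 65.0 CPM, while NPY had its lowest value (3.98 against 19.8 CPM) and GAD1 and GAD2 were below their medians, and in replicate 16 LHX6 was below its median. The part of that list in the CBLN4 level was not tested. The lowest, median and highest CBLN4 values were 8.96, 12.1 and 27.01 CPM in the prefix-2010 group, 13.7 and 7.58 CPM in the 2 libraries of the prefix-2011 group, and 8.31, 10.96 and 48.4 CPM in the prefix-2009 group. The mean over all libraries was 13.2 ± 7.24 CPM (SD, n = 32), and without replicates 1 and 16 it was 11.5 ± 1.99 CPM (SD, n = 30).

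**Figure D1:**
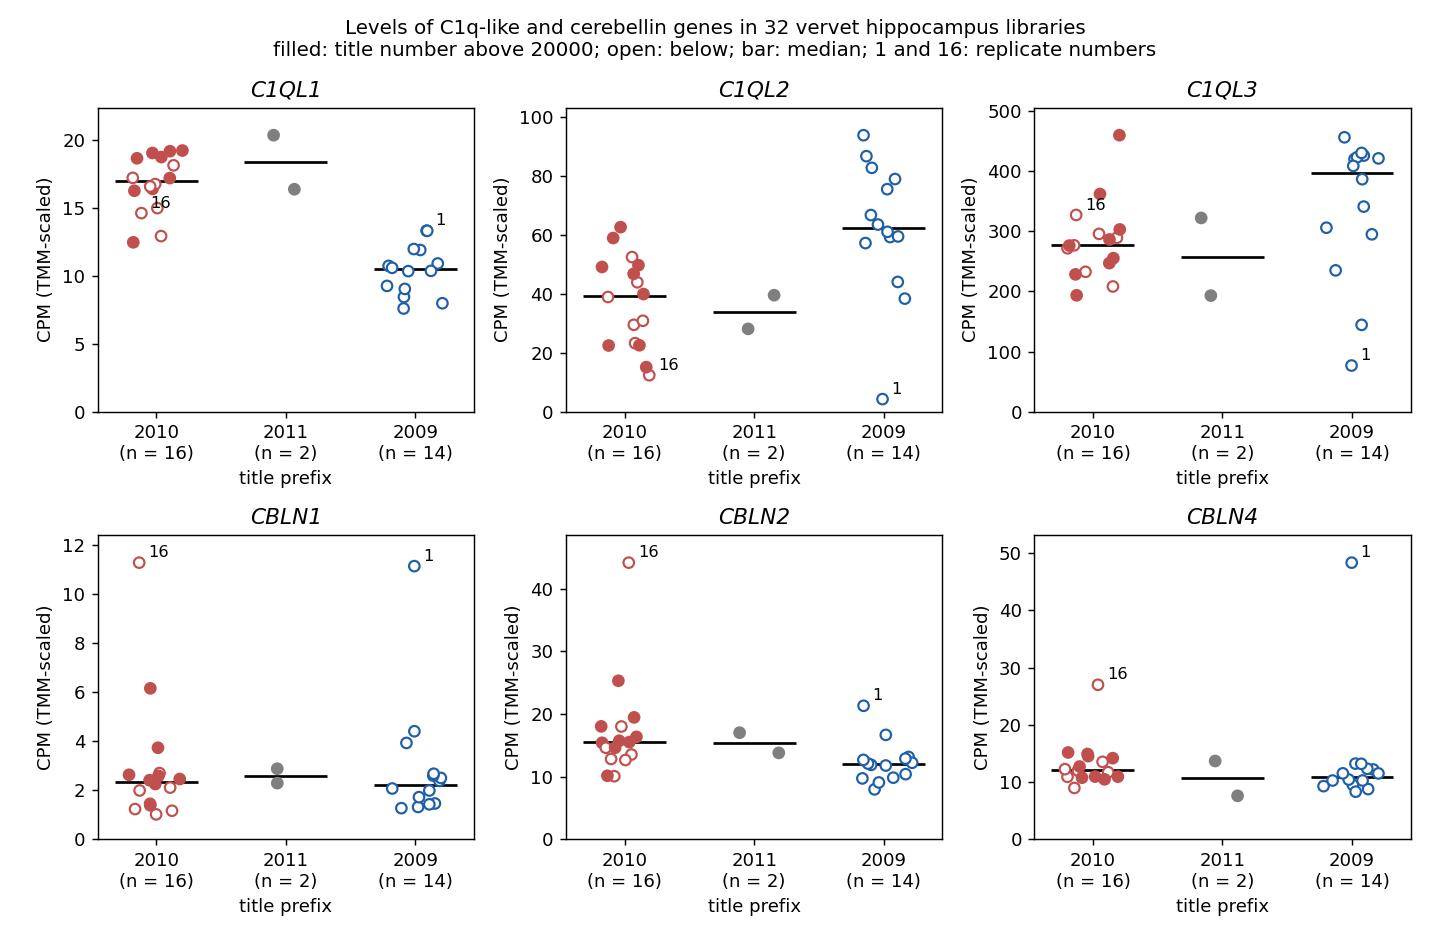
CPM of each member in every library, grouped by title prefix into the prefix-2010 (n = 16), prefix-2011 (n = 2) and prefix-2009 (n = 14) groups; filled points have a title number above 20000, open points below, and bars are medians. C1QL1 in the prefix-2010 group lies between 12.5 and 19.2 CPM and in the prefix-2009 group between 7.61 and 13.3 CPM, while replicates 16 and 1 hold the highest CBLN1 and CBLN4 values.

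As a log2 difference of the prefix-2010 minus the prefix-2009 group, fitted with edgeR on all libraries, C1QL1 was 0.70 ± 0.08 and CBLN2 0.50 ± 0.16 (SE). C1QL2 was -0.73 ± 0.24 and C1QL3 -0.27 ± 0.17 (SE). CBLN1 at 0.02 ± 0.32 and CBLN4 at -0.01 ± 0.20 (SE) stood near 0, but both values turned on the pair: CBLN1 gave 0.32 without replicate 1 and -0.26 without replicate 16, and CBLN4 gave 0.28 and -0.11. Over all 23977 genes tested the median difference was 0.0054, against 0.0073 over the 6 members.

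Marker lists were counted along the same split, in which 12.5% of all 23977 genes tested were called. Of 9 markers of oligodendrocyte precursors, the glial progenitors that express PDGFRA, 4 were higher in the prefix-2010 group and none lower (edgeR's quasi-likelihood test, adjusted p under 0.05), and their summed level had a median of 1687 CPM (range 1361 to 2135) in the prefix-2010 group and 1354 CPM (range 1064 to 1917) in the prefix-2009 group. Of 9 tested markers of immature neurons, 8 were higher and none lower, with summed medians of 1369 and 814 CPM in the prefix-2010 group and the prefix-2009 group. Of 8 dentate granule markers 1 was lower and none higher, a share at that of all genes, with summed medians of 588 CPM in the prefix-2010 group and 696 CPM in the prefix-2009 group. Among the 8, DSP, TDO2 and LCT had medians of only 0.22, 0.24 and 0.35 CPM, where a difference is hard to call. Among the other lists, 1 of 7 CA pyramidal markers, also near the share of all genes, 2 of 6 somatostatin interneuron and 2 of 5 striatal markers were higher, and none was lower. No thalamic, cerebellar granule or choroid plexus marker passed (4, 4 and 5 tested). With the dentate granule, oligodendrocyte precursor or immature neuron score in the fit, in that order, the C1QL1 difference was 0.63 ± 0.08, 0.44 ± 0.07 and 0.54 ± 0.11 (SE). That of C1QL2 was -0.24 ± 0.19, -0.23 ± 0.29 and -0.31 ± 0.36 (SE). That of C1QL3 was 0.13 ± 0.14, 0.27 ± 0.17 and 0.02 ± 0.26 (SE), and that of CBLN2 0.28 ± 0.15, 0.62 ± 0.19 and 0.81 ± 0.24 (SE). For CBLN1 it was -0.40 ± 0.28, 0.19 ± 0.38 and 0.79 ± 0.48 (SE), and for CBLN4 -0.21 ± 0.15, -0.11 ± 0.24 and 0.25 ± 0.31 (SE). The cause of these shifts was not tested. In bulk tissue, fewer cells of a type and less RNA per cell cannot be told apart.

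The 15 partner genes played no part in choosing the members, but were listed with earlier results on these libraries known. Of them, 3 were higher and 2 lower in the prefix-2010 group, where 12.5% of all 23977 genes tested were called, 7.11% higher and 5.35% lower. The median difference over the partners was -0.06, against 0.0054 over all genes. NRXN2 and NRXN3, presynaptic neurexins, passed in opposite directions. NRXN2 averaged 413 ± 49.5 CPM in the prefix-2010 group and 339 ± 23.6 CPM in the prefix-2009 group (SD, n = 16 and 14), a log2 difference of 0.29 ± 0.05 (SE, adjusted p = 0.00101). NRXN3, the neurexin tied to mouse C1ql2, averaged 271 ± 40.5 CPM in the prefix-2010 group and 323 ± 32.9 CPM in the prefix-2009 group, a log2 difference of -0.25 ± 0.06 (SE, adjusted p = 0.0101).

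CBLN3, known in mouse as a partner of Cbln1 in cerebellar granule cells, had a lowest, median and highest value of 1.21, 2.68 and 3.73 CPM in the prefix-2010 group and of 3.12, 4.05 and 5.48 CPM in the prefix-2009 group. It was lower, with a log2 difference of -0.72 ± 0.14 (SE, adjusted p = 0.00114), and the ranges overlapped between 3.12 and 3.73 CPM. CBLN3 overlaps KHNYN in the same gene table, so its reads may not all be its own.

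Of the 15 partners, 10 did not pass. They include the C1q-like receptor ADGRB3 (0.03 ± 0.04, adjusted p = 0.765), the cerebellin receptor GRID1 (-0.06 ± 0.05, adjusted p = 0.487), the kainate receptor subunits GRIK2, GRIK4 and GRIK5, and the CBLN4 receptors DCC and NEO1. GRIK5 (-0.29 ± 0.11, adjusted p = 0.0808) passed when replicate 1, 5, 17 or 18 was left out, and DCC (-0.27 ± 0.12, adjusted p = 0.140) when replicate 1 was. The prefix-2009 group held no library with a title number above 20000, so the comparison was repeated with lower numbers only, where NRXN3 no longer passed (adjusted p = 0.421).

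The second number in the titles splits the prefix-2010 libraries into 9 above 20000 and 7 below, a split that played no part in choosing the members. Of the 21488 genes tested, 0 (0%) passed edgeR's quasi-likelihood test, 3023 had an unadjusted p under 0.05, and DESeq2 called 194. None of the 6 members passed. C1QL1 had a lowest, median and highest value of 12.5, 18.7 and 19.2 CPM above 20000 and of 12.9, 16.6 and 18.2 CPM below, a log2 difference of 0.14 ± 0.09 (SE, adjusted p = 0.522). C1QL2 had 15.1, 46.7 and 62.6 CPM above and 12.4, 30.8 and 52.4 CPM below, a log2 difference of 0.31 ± 0.29 (SE, adjusted p = 0.666). The groups overlapped in both genes over most of their range.

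The other 4 members differed by 0.10 ± 0.14 for C1QL3, -0.11 ± 0.45 for CBLN1, -0.10 ± 0.25 for CBLN2 and -0.10 ± 0.18 for CBLN4 (SE, smallest adjusted p = 0.791). The median over the members was 0.0019, against 0.00043 over all genes. Replicate 16 lies among the lower numbers, and without it the CBLN1 difference was 0.69 and the CBLN2 difference 0.29, still not passing. A two-sided exact permutation test on log2 CPM over all 11440 arrangements gave p = 0.191 for C1QL1, the smallest of 6, and an adjusted p of 0.914 for each of them. For CBLN1, whose SE was 0.45, a difference of that size would not have been detectable. All 15 partners were also not called, among them NRXN3 at -0.26 ± 0.08 (SE, adjusted p = 0.215).

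How the members varied with cell-type markers was asked with scores, each the mean of standardised log2 CPM over a marker list, with the title prefix in the fit so that slopes are within prefixes. A slope is the log2 change of a gene per SD of the score. With the dentate granule score, from 5 markers that passed the filter on low counts, 5 of the 6 members passed, 2 with a positive and 3 with a negative slope, where 12.5% of the 19954 genes tested were called, 6.26% positive and 6.19% negative. The median slope over the members was -0.18, against -0.0038 over all genes.

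C1QL2 and C1QL3, the mossy fibre members in mouse, were higher where dentate granule markers were higher. C1QL2 had a slope of 0.61 ± 0.11 (SE, adjusted p = 0.000306) and C1QL3 one of 0.41 ± 0.07 (SE, adjusted p = 0.000347). Both calls held when each library was left out in turn, with slopes of 0.41 to 0.65 for C1QL2 and 0.26 to 0.44 for C1QL3. Without both replicates 1 and 16 the slopes were 0.33 for C1QL2 (adjusted p = 0.0161) and 0.30 for C1QL3 (adjusted p = 0.00323).

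Within single prefixes the C1QL2 slope was 0.44 in the prefix-2010 group (adjusted p = 0.0729) and 0.62 in the prefix-2009 group (adjusted p = 0.0651), so it kept its sign but did not pass. C1QL3 had a slope of 0.12 in the prefix-2010 group (adjusted p = 0.421) and 0.62 in the prefix-2009 group (adjusted p = 0.00717). The test of that difference gave -0.48 ± 0.12 (SE, adjusted p = 0.0826), and without replicates 1 and 16 it gave -0.24 (adjusted p = 0.855). None of the members passed this test of slopes between prefixes, in which 0.0599% of the 20032 genes tested were called.

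The 3 cerebellins were lower where dentate granule markers were higher, but through few libraries. CBLN1 had a slope of -0.57 ± 0.13 (SE, adjusted p = 0.00256), CBLN2 one of -0.28 ± 0.07 (SE, adjusted p = 0.00756) and CBLN4 one of -0.38 ± 0.07 (SE, adjusted p = 0.00023). Without replicate 1 none of them passed (adjusted p = 0.129 for CBLN1, 0.0585 for CBLN2 and 0.297 for CBLN4). Without replicates 1 and 16 the slopes were -0.14 for CBLN1, -0.11 for CBLN2 and -0.02 for CBLN4. C1QL1 had a slope of -0.08 ± 0.04 (SE, adjusted p = 0.203).

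**Figure D2:**
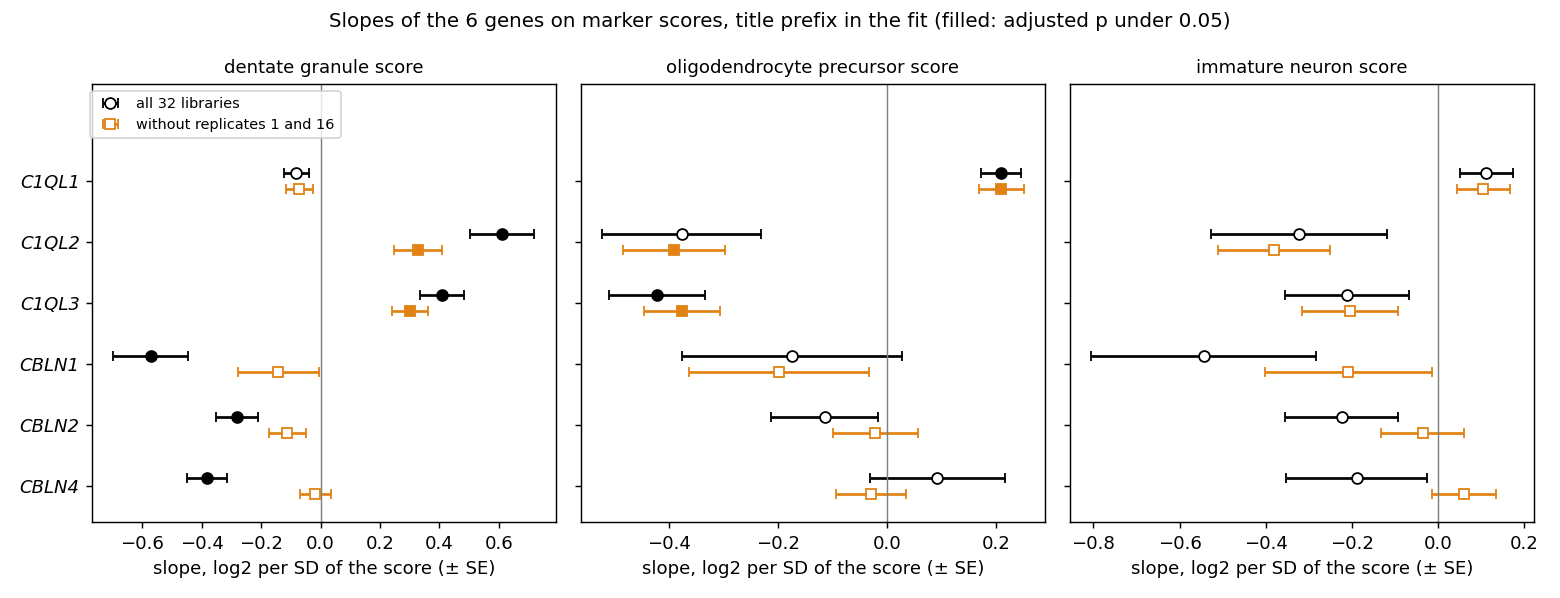
Slope of each member on 3 marker scores, in log2 units per SD of the score with SE, for all 32 libraries (circles) and without replicates 1 and 16 (squares); filled symbols have an adjusted p under 0.05. C1QL2 and C1QL3 stay above 0 on the dentate granule score in both, while CBLN4 has -0.38 in all libraries and -0.02 without the pair.

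Among the partners, C1QL4, ADGRB2, GRIK5 and DCC had positive slopes on the dentate granule score, and ADGRB3 and ADGRB1 negative ones, 6 of 15 in all. The median slope of the partners was 0.01. GRIK5, a kainate receptor subunit found at mossy fibre synapses in mouse, had 0.22 ± 0.05 (SE, adjusted p = 0.00139) and was the only one of the 6 still called when replicate 1 was left out. C1QL4, the remaining C1q-like gene, was low throughout, from 0 to 1.61 CPM, with no read in replicate 1.

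With the oligodendrocyte precursor score, 2 of the 6 members passed, 1 with a positive and 1 with a negative slope, where 13.7% of the 19950 genes tested were called, 6.46% positive and 7.26% negative. The median over the members was -0.14, against 0.0041 over all genes. C1QL1 was higher where the precursor markers were higher, with a slope of 0.21 ± 0.04 (SE, adjusted p = 0.000667). Leaving out each library gave 0.19 to 0.22, and the call held each time. Within the prefix-2010 group its slope was 0.14 (adjusted p = 0.189), and within the prefix-2009 group it was 0.22 (adjusted p = 0.0224).

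C1QL3 went the other way, with a slope of -0.42 ± 0.09 (SE, adjusted p = 0.00276) that passed without each library in turn. C1QL2 had -0.38 ± 0.15 (SE, adjusted p = 0.0774), which passed when replicate 16 or 27 was left out and without both replicates 1 and 16 (-0.39, adjusted p = 0.00656). CBLN1, CBLN2 and CBLN4 had slopes of -0.17, -0.11 and 0.09 (adjusted p = 0.591, 0.447 and 0.651). None of the 15 partners passed, and without replicate 16 ADGRB1 did.

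**Figure D3:**
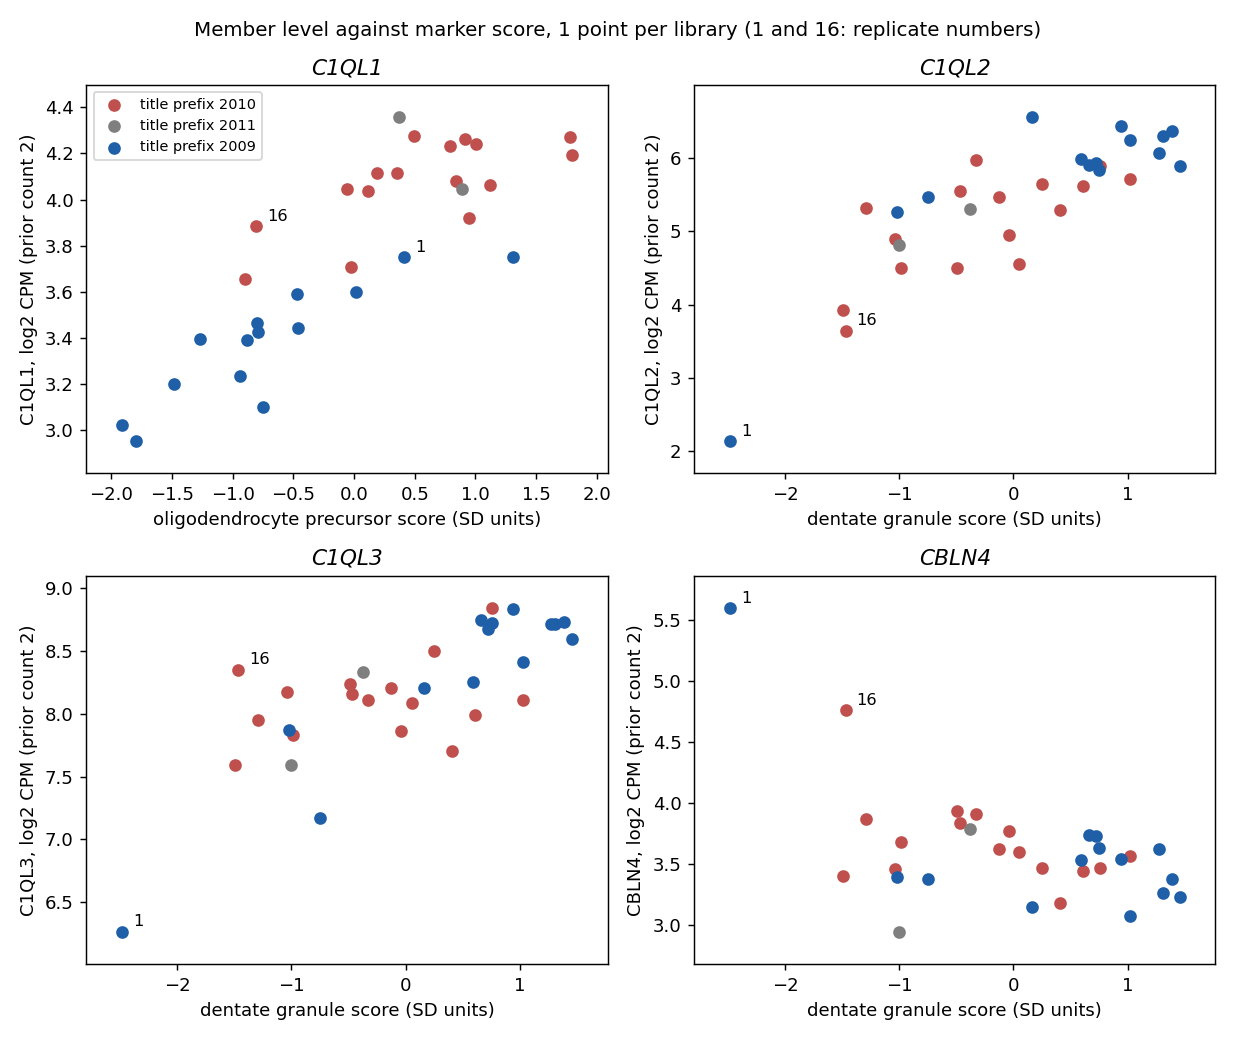
Log2 CPM of 4 members in each of 32 libraries against a marker score in SD units: C1QL1 against the oligodendrocyte precursor score, and C1QL2, C1QL3 and CBLN4 against the dentate granule score, coloured by title prefix. C1QL2 climbs along the score, and CBLN4 is flat apart from replicates 1 and 16.

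With the immature neuron score, from 9 markers such as DCX, 0 of the 6 members passed edgeR's test, where 8.76% of the 19950 genes tested were called, 4.2% positive and 4.57% negative, and 4315 had an unadjusted p under 0.05. The median over the members was -0.22, against -0.00073 over all genes. The smallest adjusted p was that of CBLN1, 0.216, with a slope of -0.54 ± 0.26 (SE), and C1QL1 had 0.11 ± 0.06 (SE, adjusted p = 0.294). The partners NRXN2 (0.12, adjusted p = 0.0460) and NEO1 (0.17, adjusted p = 0.0492) passed, and lost the call when any of 26 and any of 25 single libraries was left out.

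The 3 cerebellins varied together, and so did C1QL2 and C1QL3, while C1QL1 had no positive correlation that passed. Correlations were taken over 32 libraries on log2 CPM centred within prefix, with permutations within prefix and adjustment over all 15 pairs. CBLN1 and CBLN2 had Pearson's r = 0.82 (adjusted p = 7.5e-05, permutation test) and Spearman's rho = 0.57 (adjusted p = 0.0101). CBLN2 and CBLN4 had r = 0.71 (adjusted p = 7.5e-05, permutation test) and rho = 0.57 (adjusted p = 0.0101), and CBLN1 and CBLN4 had r = 0.74 (adjusted p = 2e-04) and rho = 0.46 (adjusted p = 0.0317). The raw p of the first pairs, 1e-05, is the smallest that 100000 permutations can give. Without the 2 libraries farthest from the median, which were replicates 1 and 16, r was 0.66 for CBLN1 with CBLN2, 0.48 for CBLN2 with CBLN4 and 0.42 for CBLN1 with CBLN4.

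C1QL2 and C1QL3 had r = 0.73 (adjusted p = 0.00204, permutation test) and rho = 0.46 (adjusted p = 0.0317), with r = 0.54 without the farthest 2 libraries. Within prefixes r was 0.33 in the prefix-2010 group and 0.86 in the prefix-2009 group. C1QL2 had negative r with all 3 cerebellins, -0.64 with CBLN1, -0.58 with CBLN2 and -0.74 with CBLN4 (adjusted p = 0.00285, 0.00204 and 0.0107), but no rho passed (adjusted p = 0.106, 0.106 and 0.242). Without replicates 1 and 16 these were -0.24, -0.26 and -0.0015, so the negative relations rested on those libraries. C1QL1 and C1QL3 had r = -0.45 (adjusted p = 0.0322) and a rho that did not pass (adjusted p = 0.111).

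**Figure D4:**
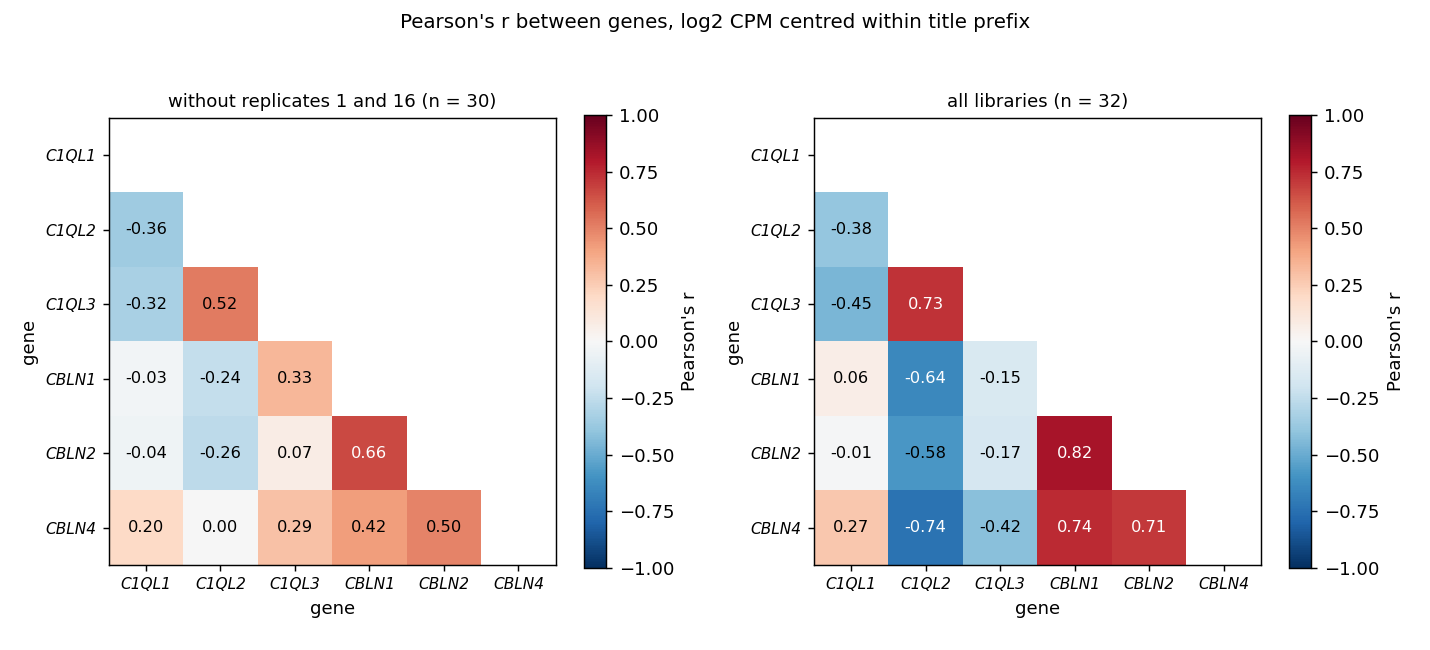
Pearson's r for each pair of members on log2 CPM centred within title prefix, without replicates 1 and 16 (left, n = 30) and over all libraries (right, n = 32). The pair CBLN1 and CBLN2 is 0.66 on the left and 0.82 on the right, and C1QL2 with CBLN4 is near 0 on the left and -0.74 on the right.

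The members differed in how far they spread between animals. The biological coefficient of variation, edgeR's estimate of spread beyond counting error, was 0.57 for CBLN1 and 0.51 for C1QL2, above 99.3% and 98.7% of 19959 genes, whose median was 0.157. It was 0.36 for CBLN4, 0.33 for CBLN2, 0.32 for C1QL3 and 0.27 for C1QL1. The title prefix was not in this fit, so differences between prefixes, such as that of C1QL1, count in these values. Without replicates 1 and 16, CBLN4 had 0.161, near the median of 0.145 over 20076 genes, while C1QL2 kept 0.40 and CBLN1 0.38, above 97.1% and 96.5% of genes. The receptor ADGRB3 was among the evenest genes, at 0.09, above 8.47% of genes.

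The genes whose pattern was most like each member were ranked by Pearson's r over the 32 libraries, on log2 CPM centred within prefix, among 12917 genes, as a description in which all points share libraries and depth. For C1QL1 these were GPR17 (r = 0.76), B3GNT7, DOCK6, PDGFRA and OLIG2 (r = 0.73). GPR17, PDGFRA and OLIG2 are known markers of the oligodendrocyte lineage. PDGFRA and OLIG2 are also part of the oligodendrocyte precursor score, so their place here is not separate from the C1QL1 slope on that score. Without replicates 1 and 16, r was 0.69 to 0.74 over GPR17, PDGFRA, OLIG2, B3GNT7 and DOCK6.

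For C1QL2 they were ACVR1C (r = 0.98, rho = 0.98), ATP8A1, NSF, LUZP1 and HPCA (r = 0.94), and ACVR1C, a receptor of the activin and nodal family, kept r = 0.93 without replicates 1 and 16. For C1QL3 they included PTER (r = 0.89), its overlapping neighbour, then KCNA4, PRKAR1B and SOWAHA (r = 0.85). KCNA4 encodes a voltage-gated potassium channel. Without replicates 1 and 16, r was 0.78 to 0.93 for the C1QL2 genes and 0.74 to 0.84 for the C1QL3 genes named.

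For CBLN1 they were RIMS3 (r = 0.85), MEF2C, CBLN2, HSD11B1L and OTOA (r = 0.81). Without replicates 1 and 16, r in the CBLN1 list was 0.61 to 0.72. For CBLN2 they were KCNK2 (r = 0.85), RGS4, IL1RAPL2, KCNH5 and CBLN1 (r = 0.82), so each of these 2 cerebellins was among the 5 nearest of the other. Without replicates 1 and 16, r in the CBLN2 list was 0.63 to 0.74. For CBLN4 they were YPEL1 (r = 0.88), OCA2, ADAM19, PLCD3 and CACNB4 (r = 0.84), and without replicates 1 and 16 their r was 0.14 to 0.49.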

How the data were processed

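The authors deposited whole-number counts of reads per gene for 32 libraries. Per the labels' protocols, Ribo-Zero Gold removed ribosomal RNA and libraries came from a stranded TruSeq kit. STAR and HTSeq are the tools in the submitters' processing notes. Tool versions, genome build, annotation and strand setting are not given in the sources read here. The 5 HTSeq summary rows, among them reads outside features (51.3% to 67.1% of reads per library), were left out.

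The members, marker lists, partner genes and tests were chosen with earlier results of these data known. Named are the 6 members, the 15 partner genes and, for each member, the 5 genes of highest Pearson's r among filtered genes of mean CPM at least 1, except that a few of these genes are not reported here. Marker lists covered dentate granule, CA pyramidal, oligodendrocyte precursor, immature neuron, somatostatin interneuron, thalamus, striatum, cerebellar granule and choroid plexus. ADGRB1 to ADGRB3 stand as BAI1 to BAI3 in the table, FOLR1 was matched by gene number, and TUBB2B was not found under its symbol.

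CPM used TMM-scaled library sizes, and log2 CPM a prior count of 2. Genes were filtered with filterByExpr (minimum count 10, total 15). Counts were tested with edgeR 4.0.16 (quasi-likelihood, limma 3.58.1, R 4.3.3) with Benjamini-Hochberg adjustment at 0.05 over all tested genes, and the code was tested on simulated data. Scores covered dentate granule cells, oligodendrocyte precursors and immature neurons, and their genes were not tested on their own score. DESeq2 1.42.0, its size factors, no filter, no prefix term, single prefixes and leaving out each library were alternatives. No 2 libraries agreed within counting noise (smallest chi-square per degree of freedom 4.03 over 496 pairs). A count of 3 reads equals 0.152 to 0.321 CPM, which covers counting error only. Nothing in the labels states separate litters or cultures, so p-values measure the spread between these libraries.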

Additional observations from a re-analysis of the deposited data

Results flagged for a closer look

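In 12 groups of at most 10 libraries (6 members in the higher and the lower title numbers of the prefix-2010 group), 5 single libraries lay far from the others by Dixon's ratio, the gap to the nearest library over the whole range. Chance gives about 1 in 20 groups where values are normally distributed, which was not tested for CPM. The groups are not independent, because all members were measured in the same libraries and the cerebellins varied together. Replicate 16 was high among the lower numbers in all 3 cerebellins: CBLN1 at 11.3 CPM with the next library at 2.70 CPM (ratio 0.836), CBLN2 at 44.1 CPM with the next at 17.99 CPM (ratio 0.767) and CBLN4 at 27.01 CPM with the next at 13.5 CPM (ratio 0.747). The same library held the highest striatal and thalamic marker sums, the thalamic one mostly through SLC17A6, and their part in these levels was not tested.

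Among the higher numbers, replicate 22 was high in CBLN1 at 6.16 CPM with the next at 3.73 CPM (ratio 0.508), and replicate 19 was low in C1QL1 at 12.5 CPM with the next at 16.3 CPM (ratio 0.562).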

How the results depend on the processing

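No paired analysis was possible because the titles give no shared replicate numbers. For prefix-2010 minus prefix-2009, 2987 genes were called, 1162 with title numbers under 20000 only, and 2237 to 3870 without each library. For the number set, 0 were called, 194 with DESeq2 and 0 to 21 without each library. For the dentate granule slope, 2485 were called, 1066 without replicates 1 and 16 (chosen after seeing the data), 4113 with no prefix term, 184 in the prefix-2010 group only, 677 in the prefix-2009 group only, and 1060 (without replicate 1) to 2775 without each library. For the oligodendrocyte precursor slope, 2738 were called, 4428 with no prefix term, 7 in the prefix-2010 group only, 500 in the prefix-2009 group only, and 1589 (without replicate 1) to 3964 without each library. For the immature neuron slope, 1748 were called, 6140 with no prefix term, 1051 in the prefix-2010 group only, 61 in the prefix-2009 group only, and 1051 (without replicate 30) to 2147 without each library. The slope difference on the dentate granule score had 12 calls, and 0 without replicates 1 and 16, where 3160 had an unadjusted p under 0.05 with them. On the other scores it had 0 calls by edgeR, with 1148 and 669 genes at an unadjusted p under 0.05. Single prefixes hold fewer libraries. The cause of the other shifts was not tested. No called result changed direction under the alternatives run. For the number set, where edgeR gave -0.11 for CBLN1 and -0.10 for CBLN2, DESeq2 put CBLN1 at 0.65 ± 0.30 (SE), and the exact test's mean log2 differences were 0.23 and 0.03. Without replicate 16, edgeR gave 0.69 for CBLN1 and 0.29 for CBLN2, so these values turned on that library. CBLN1 counts were also low, from 13 to 135 reads per library, and the part of counting error in its shifts was not tested.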
